A study of Mus musculus with 12 samples.

Results

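The fatty acid oxidation enzymes described here are 31 genes, chosen by symbol from the 19308 genes of the deposited count matrix. The choice was made with earlier results of these data known. They cover activation of fatty acids, the carnitine shuttle, the acyl-CoA dehydrogenases, electron transfer, the later steps of the mitochondrial spiral, the enzymes that handle double bonds, and the peroxisomal branch. All 31 were found in the matrix, and all 31 were among the 14094 genes that passed the filter on low counts. RNA was measured by sequencing in 12 hearts of C57BL/6 mice, 3 in each of 4 groups: WT sham, WT TAC, F3-KO sham and F3-KO TAC. F3-KO mice carry a global Fabp3 knockout made with CRISPR-Cas9, so the gene was disrupted in every tissue and from before surgery. TAC is a ligation of the aortic arch that loads the left ventricle with pressure. Mice were operated at 8 weeks of age, and hearts were collected 1 week after TAC or sham surgery. The comparisons ask how each step of fatty acid oxidation responded to TAC in each genotype.

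Long-chain fatty acids are the main fuel of the adult heart. They are joined to coenzyme A, pass the inner mitochondrial membrane as carnitine esters and are shortened in the matrix by a repeating spiral of dehydrogenation, hydration, a second dehydrogenation and thiolysis, with electrons from the first dehydrogenation passing through the electron transfer flavoprotein to the respiratory chain. Peroxisomes shorten very long and branched chains with enzymes of their own. FABP3, the protein removed in F3-KO mice, is the fatty acid binding protein of cardiomyocyte cytosol.

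Promoter sequences from RefSeq (build GRCm38.p6) were matched to 25 of the 31 members, with 26 sequences because Acsl1 has more than 1. Not matched were Cpt1b, Crat, Acad9, Acaa2, Decr1 and Hsd17b4. The 250 bases before the transcription start are shown for 4 members that the results below return to: both members with the lowest unadjusted p for TAC against sham in F3-KO hearts (Etfb and Slc25a20), Hadha, and Acadm, the medium-chain dehydrogenase, for contrast. Capitals mark matches, on either strand, to the GC box GGGCGG and the CCAAT box, and in Acadm also to the nuclear receptor half-site AGGTCA.
Etfb, chr7:43443822-43444071, plus strand: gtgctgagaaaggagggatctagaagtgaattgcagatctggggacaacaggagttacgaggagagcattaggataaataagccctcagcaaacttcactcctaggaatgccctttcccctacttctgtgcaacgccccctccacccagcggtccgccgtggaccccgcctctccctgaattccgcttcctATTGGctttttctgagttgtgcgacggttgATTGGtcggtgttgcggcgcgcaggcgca
Slc25a20, chr9:108661886-108662135, plus strand: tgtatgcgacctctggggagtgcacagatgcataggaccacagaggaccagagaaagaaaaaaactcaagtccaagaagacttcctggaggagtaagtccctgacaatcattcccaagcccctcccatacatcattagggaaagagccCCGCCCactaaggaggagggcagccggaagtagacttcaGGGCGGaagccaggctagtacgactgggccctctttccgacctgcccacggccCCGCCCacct
Hadha, chr5:30154981-30155230, minus strand: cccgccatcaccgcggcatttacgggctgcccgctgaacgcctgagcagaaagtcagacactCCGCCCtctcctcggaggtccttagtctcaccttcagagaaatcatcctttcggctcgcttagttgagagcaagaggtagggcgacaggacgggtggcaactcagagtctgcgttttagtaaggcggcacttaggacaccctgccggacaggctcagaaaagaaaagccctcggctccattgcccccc
Acadm, chr3:153944644-153944893, minus strand: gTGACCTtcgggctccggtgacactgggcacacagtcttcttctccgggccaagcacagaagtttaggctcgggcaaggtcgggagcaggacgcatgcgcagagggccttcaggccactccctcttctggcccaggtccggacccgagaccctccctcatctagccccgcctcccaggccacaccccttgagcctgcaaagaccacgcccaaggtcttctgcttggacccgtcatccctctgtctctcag
The Hadha stretch lies wholly in the 272 bases between the starts of Hadha and Hadhb, which face away from each other and encode both subunits of the mitochondrial trifunctional protein. Over the whole 300-base windows, which run 50 bases past the start, GGGCGG was found in 19 of 26 member promoters (73.1%) and in 35.7% of all 32851 promoters. AGGTCA was found in 5 of 26 (19.2%, in Acadm, Acadvl, Cpt1a, Echs1 and Scp2, against 16.3% of all). A direct repeat of AGGTCA with 1 base between the copies, the textbook form of a PPAR response element, was in 0 of 26 windows and in 0.0396% of all. CCAAT was found in 42.3% of member windows and 37.4% of all. The TATA box TATAAA was in 0 of 26 (13.6% of all) and the NRF-1 palindrome in 3 of 26 (11.5%, against 0.971% of all). These are matches of letters in one window, and binding was not measured.

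Library totals ran from 10424334 to 14372011 estimated counts, with a median of 11891665. Fabp3 transcript lay between 2117 and 3064 CPM (a gene's counts scaled to the size of its library with TMM factors) in the 6 WT hearts and between 1002 and 1143 CPM in the 6 F3-KO hearts, so transcript of the targeted gene remained in every F3-KO heart. Nppb, a natriuretic peptide gene that rises under wall stress, was higher in each TAC heart (411 to 776 CPM) than in any sham heart (95.0 to 311 CPM). The F3-KO TAC libraries stood apart from one another. Replicate 2 had 3841 CPM of Nppa, the atrial natriuretic peptide gene, and 1529 CPM of Col1a1, a fibrillar collagen gene, while replicate 1 had 153 CPM of Nppa and replicate 3 had 103 CPM of Col1a1. Replicates 2 and 3 also held transcripts of all 8 hepatocyte markers, 88.2 and 135.4 CPM in sum, against at most 1.69 CPM in the other 10 libraries. The labels number the libraries within a group without naming animals, so p-values measure the spread between these libraries.

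The fatty acid oxidation genes were expressed in every heart, and their summed share of counts was lower than in any F3-KO sham heart in all 3 F3-KO TAC hearts, by the least in replicate 3. Together the 31 members took 1.81%, 1.38% and 1.59% of counts in WT sham replicates 1 to 3 and 1.63%, 1.75% and 1.86% in F3-KO sham. They took 1.41%, 1.52% and 1.55% in WT TAC and 1.32%, 0.937% and 1.51% in F3-KO TAC. F3-KO TAC replicate 2 was the lowest of all 12 hearts, and F3-KO TAC replicate 3 lay among the WT hearts. Replicate 2 held the lowest value of all 12 hearts for 23 of the 31 members, against 11.1% of all genes tested. Replicate 3 held the highest value of its group for 28, a rank not counted over all genes. In the other groups a single heart also held most of the highest values. These were WT sham replicate 1 for 23 members, F3-KO sham replicate 3 for 22 and WT TAC replicate 3 for 18. The median coefficient of variation of the members was 28.5% in F3-KO TAC, against 9.49% in F3-KO sham, 16.3% in WT sham and 12.7% in WT TAC.

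**Figure D1:**
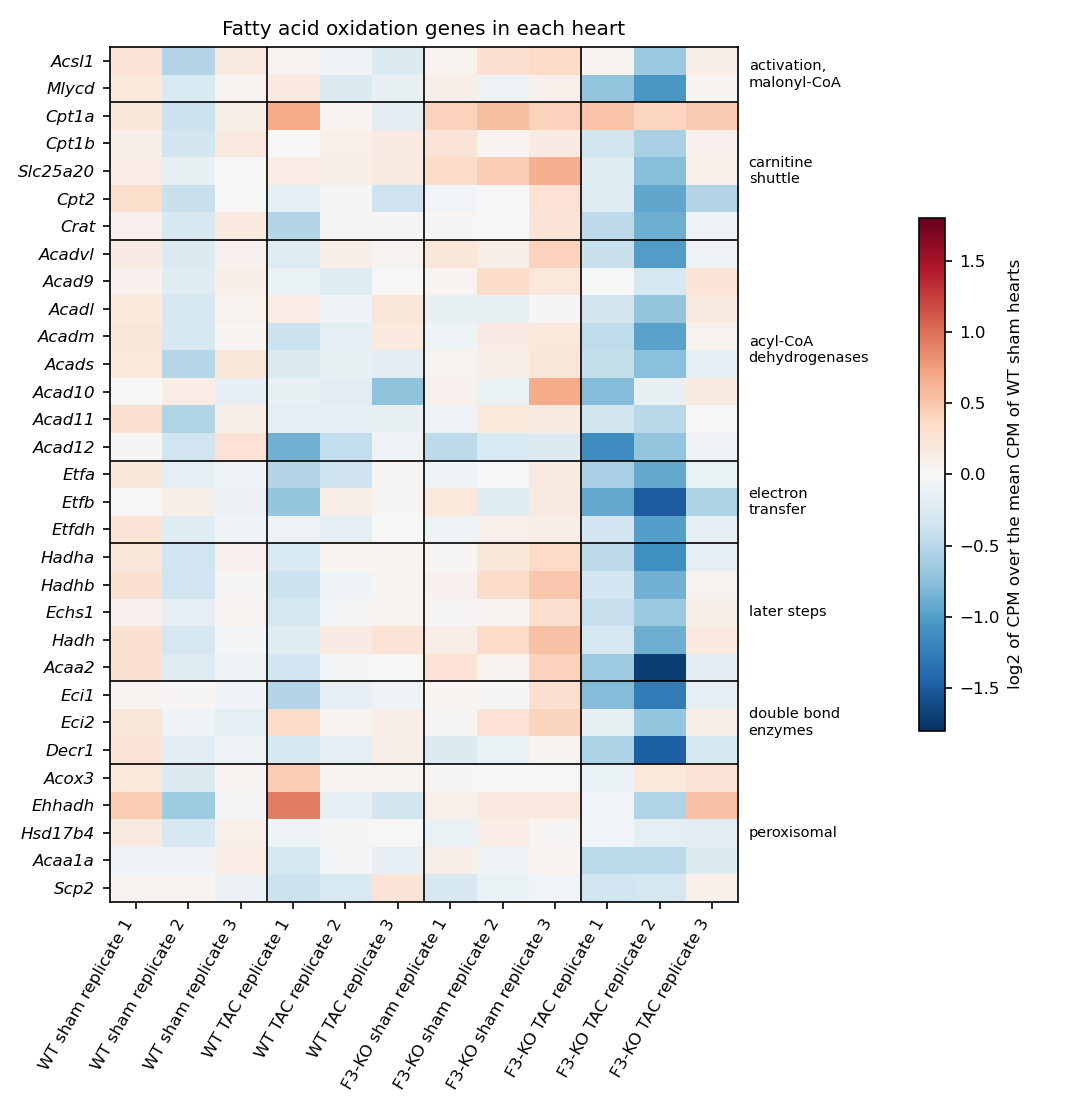
Log2 level of each of the 31 members (rows, grouped by role) in each of the 12 hearts (columns), relative to the mean CPM of the 3 WT sham hearts, with blue below and red above that mean. F3-KO TAC replicate 2 is blue over nearly all mitochondrial rows, replicate 1 less so, and replicate 3 is near 0, with members' medians of -0.71, -0.36 and 0.05.

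Per kilobase of exon (exon union of GENCODE M21, an annotation other than the authors' own), Hadhb was the most abundant member in WT sham hearts at 926 ± 197 CPM per kilobase (SD, n = 3), followed by Etfb at 681 ± 47.5, Acadm at 612 ± 105 and Acadl at 586 ± 101. By mean ± SD, Etfb, Acadm and Acadl overlapped each other, and Hadhb lay just above Etfb without overlap. Cpt1b, the muscle form of carnitine palmitoyltransferase I, which makes the carnitine esters, stood at 268 ± 47.5 CPM per kilobase, and Cpt1a, the liver form, at 14.2 ± 2.98. The least abundant were Acox3 (5.52 ± 0.865), a peroxisomal oxidase of branched chains, Ehhadh (5.39 ± 1.99), the peroxisomal bifunctional enzyme, and Acad10 (4.16 ± 0.404), a little studied dehydrogenase. Ehhadh overlapped both of the others, which did not overlap each other. The lowest value of any member in any heart, 9.34 CPM for Acad10, was far above the 0.209 to 0.288 CPM that 3 counts make.

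**Figure D2:**
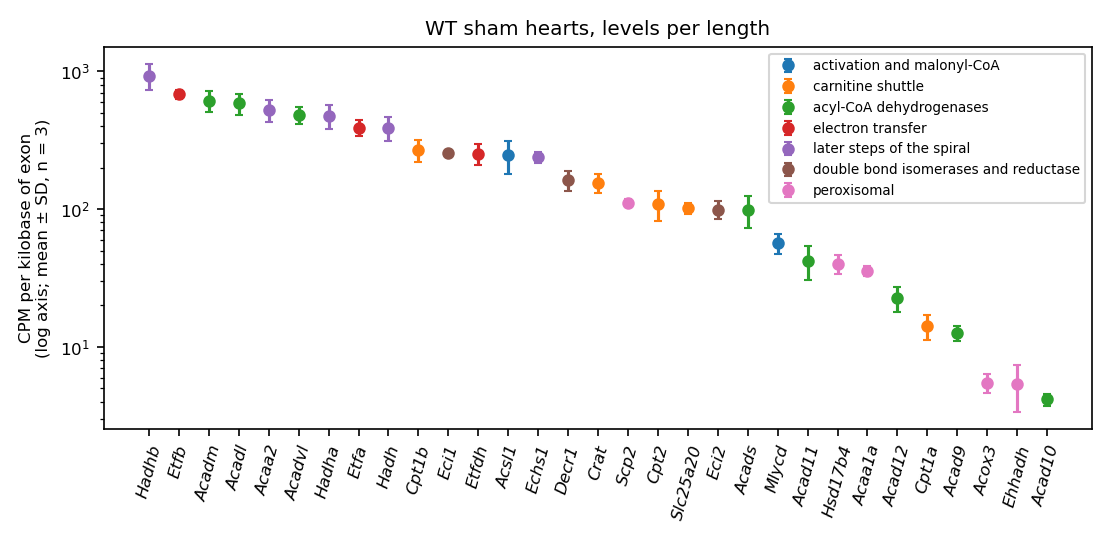
CPM per kilobase of exon (log axis, mean ± SD of the 3 WT sham hearts) for the 31 members in order of level, coloured by role. Genes of the mitochondrial spiral fill the upper end from Hadhb at 926, and Acad10, at 4.16, is the lowest.

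TAC against sham in WT hearts gave no called member. Of the 31 genes, 0 had an adjusted p under 0.05 in the quasi-likelihood test of edgeR (adjusted by Benjamini-Hochberg), 0 reached an unadjusted p of 0.05, and DESeq2 called 0. Over all genes the same rules took 0%, 6.28% and 0.164%. Fold changes were small. The median of the members was -0.11 on the log2 scale, against 0 for all genes tested, with 23 members lower and 8 higher (50% of all genes were lower). Each member's WT TAC range overlapped its WT sham range, where 4.43% of all genes did not overlap in the lower and 4.67% in the higher direction.

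The members at both ends of the WT comparison were lowly expressed or variable. Ehhadh measured 22.15, 10.3 and 15.8 CPM in WT sham and 30.4, 14.5 and 12.8 CPM in WT TAC. Its log2 fold change of 0.27 ± 0.36 (SE) rested on WT TAC replicate 1, and without that heart it was -0.23. Acad12, an acyl-CoA dehydrogenase of uncertain substrate, measured 112, 85.6 and 132 CPM in WT sham and 60.2, 80.7 and 105 CPM in WT TAC, a log2 fold change of -0.42 ± 0.26 with overlapping groups (edgeR adjusted p = 0.827). In F3-KO hearts Acad12 was 78.9, 90.2 and 92.5 CPM after sham and 50.55, 67.1 and 105 CPM after TAC.

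In F3-KO hearts most members had fold changes below 0. The median log2 fold change of the members for TAC against sham was -0.48, against 0.02 for all genes tested, and 30 of the 31 members had a value below 0 (47.1% of all genes), although Cpt1a among them was at 0.00. No member was called by edgeR at an adjusted p under 0.05, as no gene at all was (0%), and the lowest adjusted p among members was 0.175. At an unadjusted p of at most 0.05, 16 members were lower and 0 higher, where 6.47% of all genes were lower and 10.6% higher. In 14 members each F3-KO TAC heart lay below every F3-KO sham heart, against 11.4% of all genes. DESeq2 called 7 members lower at an adjusted p under 0.05 (Slc25a20, Acadvl, Etfb, Hadha, Acaa2, Eci1 and Acaa1a), against 1.11% of the 14718 genes with an adjusted p, so whether members passed depended on the tool. Without F3-KO TAC replicate 3, edgeR called 11 members lower, against 1.78% of 14340 genes, with a median of -0.66. Without replicate 2 the median was -0.33 and 0 were called. The fold changes of 13 members moved by over 1.5 times without replicate 2, and those of 10 without replicate 3.

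**Figure D3:**
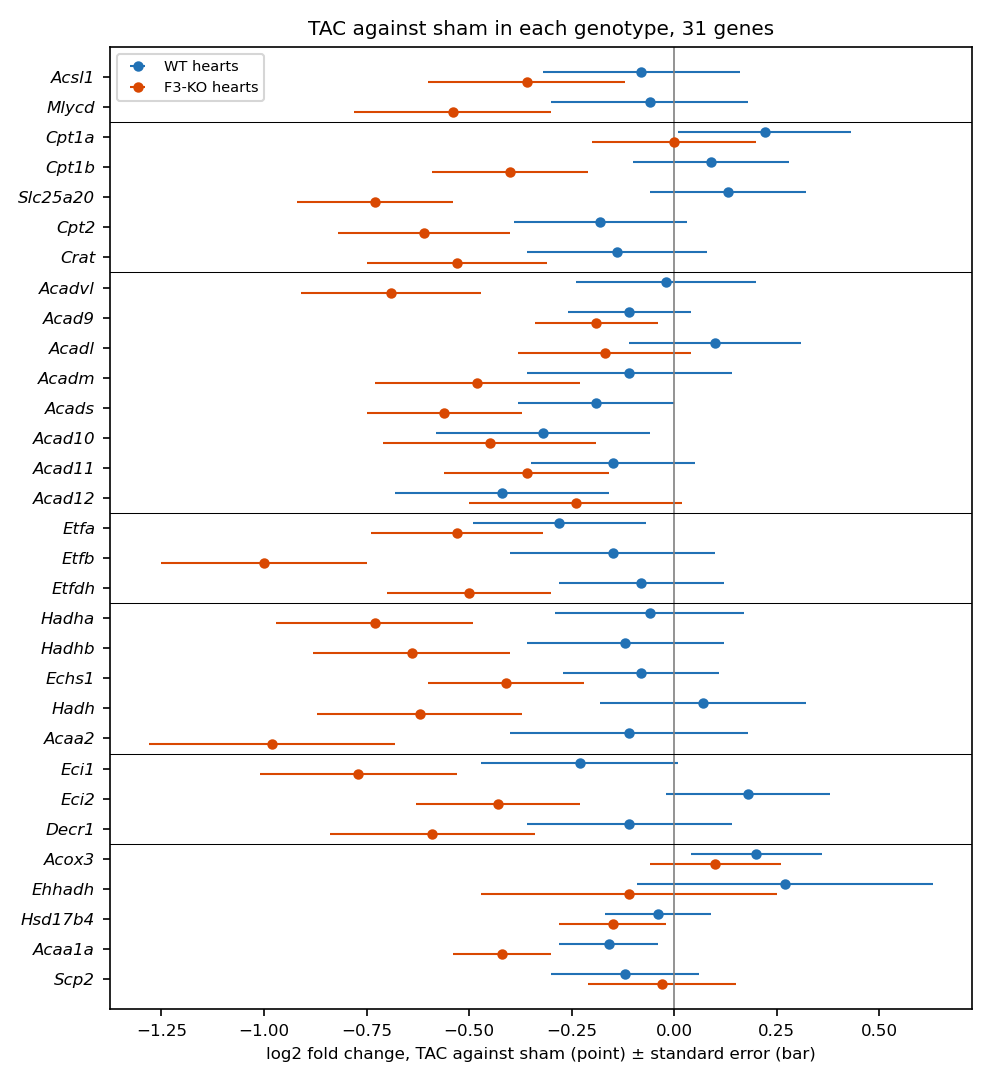
Log2 fold change of TAC against sham (points) with its standard error (bars) for the 31 members in WT hearts (blue) and F3-KO hearts (orange), ordered by role. WT values lie around 0, from -0.42 to 0.27, and most F3-KO values of mitochondrial members lie between -0.4 and -1.0.

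At the entry to the pathway, Acsl1 encodes the main long-chain acyl-CoA synthetase of the heart and Mlycd the malonyl-CoA decarboxylase, which removes the inhibitor of carnitine palmitoyltransferase I. Acsl1 had log2 fold changes for TAC against sham of -0.08 ± 0.24 in WT and -0.36 ± 0.24 in F3-KO hearts. Mlycd measured 129, 113 and 129 CPM in F3-KO sham and 73.8, 58.5 and 124 CPM in F3-KO TAC. Replicates 1 and 2 were below the sham hearts and replicate 3 within them, with a log2 fold change of -0.54 ± 0.24 (edgeR adjusted p = 0.274). In WT hearts Mlycd was 138, 99.5 and 125 CPM after sham and 136, 102 and 110.1 CPM after TAC, with overlapping groups.

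Among the 5 genes of the carnitine shuttle, the median log2 fold change was 0.09 in WT and -0.53 in F3-KO hearts. Slc25a20 encodes the carnitine-acylcarnitine translocase, which carries the esters across the inner membrane. It measured 198, 166 and 180.4 CPM in WT sham and 199, 195 and 204 CPM in WT TAC. It measured 229, 247 and 282 CPM in F3-KO sham and 156, 106 and 194 CPM in F3-KO TAC. F3-KO sham hearts were the highest of the 4 groups and F3-KO TAC hearts the lowest, and the only overlap of either with another group was F3-KO TAC replicate 3, which lay within the WT sham range. TAC against sham came to -0.73 ± 0.19 in F3-KO hearts (edgeR adjusted p = 0.175, DESeq2 adjusted p = 0.0141) and 0.13 ± 0.19 in WT hearts. Cpt2, which rebuilds the acyl-CoA in the matrix, and Crat, which handles short acyl groups, were lower in each F3-KO TAC heart than in any F3-KO sham heart, at -0.61 ± 0.21 and -0.53 ± 0.22 (edgeR adjusted p = 0.198 and 0.254). Both forms of carnitine palmitoyltransferase I differed from that. Cpt1a was 81.3, 89.1 and 81.8 CPM in F3-KO sham and 87.2, 80.0 and 85.0 CPM in F3-KO TAC, a log2 fold change of 0.00 ± 0.20. Cpt1a in WT TAC was 97.3, 62.6 and 53.8 CPM. Cpt1b was 915, 804 and 859 CPM in F3-KO sham and 618, 516 and 816 CPM in F3-KO TAC (-0.40 ± 0.19, edgeR adjusted p = 0.293), with replicate 3 again inside the sham range. In WT hearts Cpt1b was 835, 618.5 and 874 CPM after sham and 779, 825 and 868 CPM after TAC.

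The 8 acyl-CoA dehydrogenases had medians of -0.13 in WT and -0.40 in F3-KO hearts, and the 4 named for a chain length are given from long to short. Acadvl, which acts on very long chains at the inner membrane, measured 1208, 1125 and 1384 CPM in F3-KO sham and 789.8, 519 and 993 CPM in F3-KO TAC, with no overlap (-0.69 ± 0.22, edgeR adjusted p = 0.184, DESeq2 adjusted p = 0.044). In WT hearts it was 1152, 875 and 1097 CPM after sham and 885, 1117 and 1082 CPM after TAC. Acadl, for long chains, was at -0.17 ± 0.21 in F3-KO hearts, Acadm, for medium chains, at -0.48 ± 0.25, and Acads, for short chains, at -0.56 ± 0.19. Without F3-KO TAC replicate 2 Acadl stood at 0.00 and Acadm at -0.28, and without replicate 3 they stood at -0.43 and -0.79. Among these 4, each F3-KO TAC heart lay below the F3-KO sham hearts for Acadvl and Acads only, and Acadl and Acadm reached 1253 and 1313 CPM in F3-KO TAC replicate 3. Acad9, which also assembles respiratory complex I, Acad10, Acad11 and Acad12 were between -0.19 and -0.45 in F3-KO hearts, and none had an unadjusted edgeR p of at most 0.05.

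Electron transfer held the lowest log2 fold change of any member in F3-KO hearts. Etfa and Etfb encode both subunits of the electron transfer flavoprotein, and Etfdh the oxidoreductase that passes the electrons to ubiquinone. Etfb measured 694, 523.5 and 683 CPM in F3-KO sham and 322, 216 and 413 CPM in F3-KO TAC. In WT hearts it was 604, 652 and 567 CPM after sham and 374, 654 and 619 CPM after TAC. F3-KO TAC hearts were the lowest of all 12 except that WT TAC replicate 1 lay below F3-KO TAC replicate 3. The F3-KO log2 fold change was -1.0 ± 0.25, which puts the TAC level at 0.5 of the sham level (edgeR adjusted p = 0.175, DESeq2 adjusted p = 0.0111), and the WT log2 fold change -0.15 ± 0.25. Etfdh measured 572, 648 and 659 CPM in F3-KO sham and 724, 524 and 575 CPM in WT sham. Etfa and Etfdh were lower in each F3-KO TAC heart than in any F3-KO sham heart, at -0.53 ± 0.21 and -0.50 ± 0.20 (edgeR adjusted p = 0.236 and 0.233).

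The 5 genes of the later steps had the lowest median of any role in F3-KO hearts, -0.64, against -0.08 in WT hearts. Hadha, the alpha subunit of the trifunctional protein (hydratase and dehydrogenase), measured 1939.8, 2193 and 2422 CPM in F3-KO sham and 1369, 885 and 1702 CPM in F3-KO TAC, a difference of -0.73 ± 0.24 with no overlap (edgeR adjusted p = 0.184, DESeq2 adjusted p = 0.044). WT hearts measured 2203, 1492 and 2018 CPM of Hadha after sham and 1577, 1944 and 1959 CPM after TAC. Its partner Hadhb, the beta subunit (thiolase), came to -0.64 ± 0.24 in F3-KO hearts, also with no overlap (edgeR adjusted p = 0.224). Acaa2, the matrix thiolase, measured 954, 835 and 1059 CPM in F3-KO sham and 506, 247 and 694 CPM in F3-KO TAC. Its F3-KO TAC hearts lay below the F3-KO sham hearts and had the highest coefficient of variation of any member in that group (46.6%), and the log2 fold change was -0.98 ± 0.30 (edgeR adjusted p = 0.182, DESeq2 adjusted p = 0.0341). Acaa2 in WT hearts was 959, 681 and 748 CPM after sham and 629, 779 and 801 CPM after TAC. Hadh, the dehydrogenase for shorter chains, and Echs1, the short-chain hydratase, were at -0.62 ± 0.25 and -0.41 ± 0.19 in F3-KO hearts, with replicate 3 inside the sham range for both.

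Of the enzymes that move or reduce double bonds, Eci1, a matrix enoyl-CoA isomerase, measured 342, 325.5 and 411 CPM in F3-KO sham and 195, 139 and 299.6 CPM in F3-KO TAC, with no overlap (-0.77 ± 0.24, edgeR adjusted p = 0.182, DESeq2 adjusted p = 0.0439). WT hearts held 343, 338 and 318 CPM of Eci1 after sham and 231, 299.97 and 320.1 CPM after TAC. Decr1, the dienoyl-CoA reductase for unsaturated chains, measured 405, 443 and 496 CPM in F3-KO sham and was lower in each F3-KO TAC heart than in any F3-KO sham heart (-0.59 ± 0.25, edgeR adjusted p = 0.261). Eci2, an isomerase of mitochondria and peroxisomes, was at -0.43 ± 0.20 with overlapping groups.

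The 5 peroxisomal genes had medians of -0.04 in WT and -0.11 in F3-KO hearts, against -0.11 and -0.53 for the 26 mitochondrial members. Acaa1a, a peroxisomal thiolase, was the one that stood out. It measured 67.3, 59.25 and 64.05 CPM in F3-KO sham and 44.85, 44.8 and 52.6 CPM in F3-KO TAC, with no overlap (-0.42 ± 0.12, edgeR adjusted p = 0.175, DESeq2 adjusted p = 0.0294). In WT hearts it was 59.35, 60.04 and 68.4 CPM after sham and 50.8, 61.0 and 56.3 CPM after TAC. Its counts were not whole in any of the 12 hearts, and its near copy Acaa1b may share reads with it. Acaa1b held 14.73 and 35.16 estimated counts in F3-KO TAC replicates 2 and 3 and at most 1.98 in the other libraries. Sharing of reads between Acaa1a and Acaa1b was not tested. Acox3 was the only member above 0 in F3-KO hearts. It measured 38.3, 38.2 and 37.75 CPM in F3-KO sham and 34.8, 43.3 and 44.9 CPM in F3-KO TAC, a log2 fold change of 0.10 ± 0.16 with overlapping groups. In WT hearts it was 43.4, 31.6 and 38.7 CPM after sham and 51.9, 39.3 and 39.2 CPM after TAC. Without the 2 libraries with hepatocyte transcripts it was -0.13. Ehhadh, Hsd17b4, the bifunctional enzyme for branched chains, and Scp2, which carries a thiolase for branched chains, were at -0.11 ± 0.36, -0.15 ± 0.13 and -0.03 ± 0.18. Ehhadh measured 17.1, 18.1 and 18.2 CPM in F3-KO sham and 15.6, 11.0 and 23.2 CPM in F3-KO TAC, with replicate 3 the highest of these 6 hearts.

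**Figure D4:**
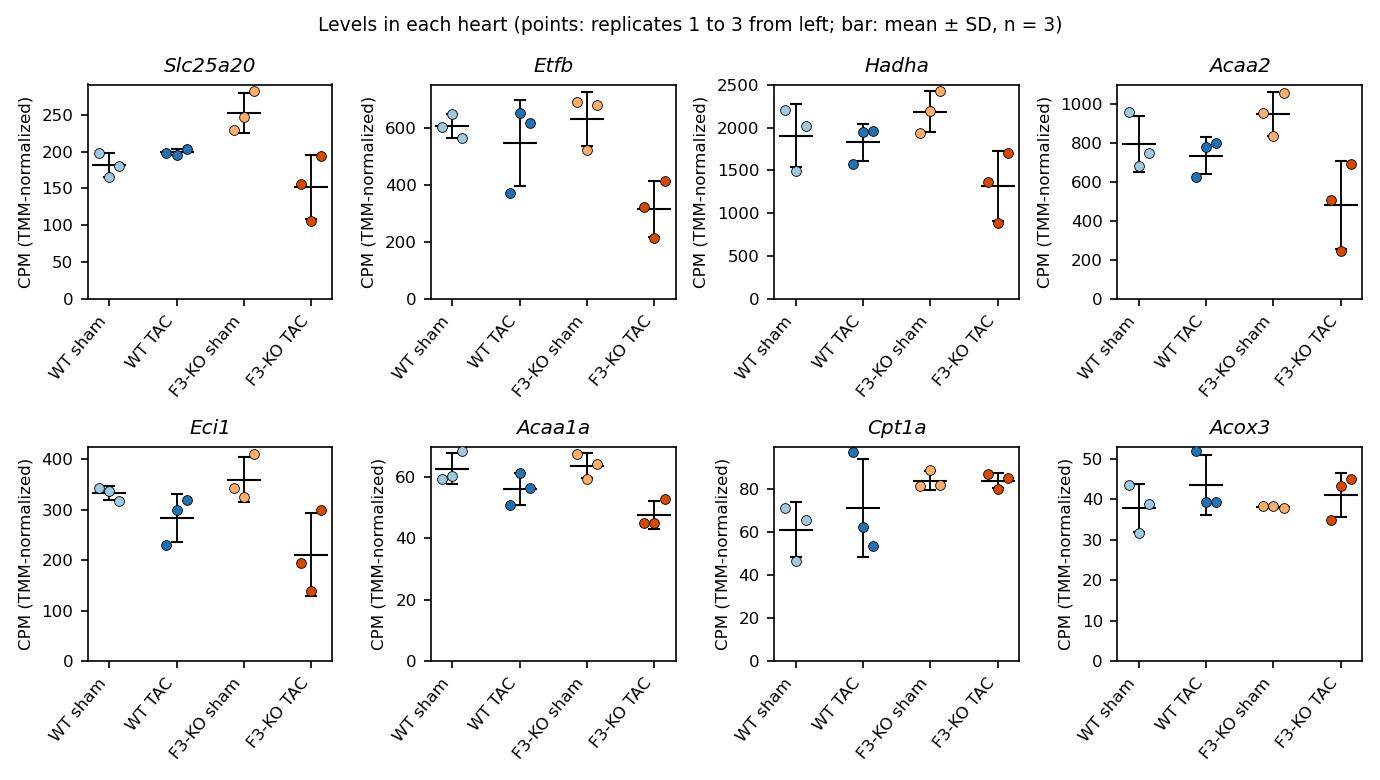
CPM of 8 members in each heart (points, replicates 1 to 3 from the left), with the mean ± SD of each group (bars, n = 3) on axes that start at 0. In Slc25a20, Etfb, Hadha, Acaa2, Eci1 and Acaa1a each F3-KO TAC heart lies below every F3-KO sham heart, while Cpt1a and Acox3 overlap.

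Averaged over both genotypes, TAC against sham gave 0 called members in edgeR, where 11 genes (0.078%) were called, and a median of -0.30. Of the members 11 were lower by the unadjusted rule (p of 0.05 or less) (6.52% of all genes), with a lowest adjusted p of 0.125. DESeq2 called Etfb and Acaa1a lower, against 0.994% of 15090 genes.

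The 2 genotypes were next compared after the same surgery. After sham surgery the members were slightly higher in F3-KO hearts, with a median of 0.11, 27 above 0 and 4 below (49.2% of all genes above 0). In edgeR 0 members were called, against 0.106% of all genes, and DESeq2 called 0, against 0.66%. At an unadjusted p of at most 0.05, 2 were higher (2.81% of all genes). These were Slc25a20, at 0.48 ± 0.19, and Cpt1a, at 0.46 ± 0.21 (edgeR adjusted p = 0.719 and 0.821). In both, each F3-KO sham heart lay above every WT sham heart. These 2 of 31 members make 6.45%, no more than the 6.78% of all genes with that pattern. Cpt1a measured 71.1, 46.6 and 65.8 CPM in WT sham, and the lowest F3-KO sham heart, at 81.3 CPM, lay above these. The median moved with single WT sham hearts, from -0.01 without replicate 2 to 0.21 without replicate 1.

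After TAC the members were lower in F3-KO hearts, with a median of -0.28 and 28 of 31 below 0 (46.9% of all genes). In edgeR 0 were called (0.078% of all genes) and in DESeq2 0 (0.594%). Etfb at -0.79 ± 0.25 and Decr1 at -0.59 ± 0.25 had an unadjusted edgeR p of at most 0.05 (4.16% of all genes were lower by that rule), with adjusted p = 0.45 and 0.474. Decr1 stood at -0.33 without F3-KO TAC replicate 2 and -0.85 without replicate 3, and Etfb at -0.59 and -1.03. Each F3-KO TAC heart lay below every WT TAC heart for 3 members, Slc25a20, Etfdh and Decr1, against 5.1% of all genes. Decr1 measured 570.06, 419 and 458 CPM in WT sham. It measured 396, 429 and 520.02 CPM in WT TAC and 324, 175 and 394 CPM in F3-KO TAC, so the groups were parted by less than the spread within either. Etfdh measured 572, 545 and 609 CPM in WT TAC and 477, 307 and 542 CPM in F3-KO TAC. The median was -0.53 without F3-KO TAC replicate 3 and -0.14 without replicate 2.

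The difference between the TAC responses was tested itself, as the interaction of genotype and surgery. The median over the members was -0.37, against 0.03 for all genes, and 29 of 31 were below 0 (45.8% of all genes). In edgeR 0 members were called (0% of all genes) and 0 in DESeq2 (0.0313%), and 2 were lower by the unadjusted rule (p of 0.05 or less) (2.18% of all genes). Slc25a20 had an interaction of -0.87 ± 0.26 and Etfb of -0.85 ± 0.36, both with an adjusted edgeR p of 0.954. A difference between genotypes in the TAC response of a single member was thus not detected at this number of hearts. The comparisons that use F3-KO TAC hearts share those libraries.

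Markers of some cell types moved with these differences. The 6 endothelial markers had medians near 0 for TAC against sham, -0.04 in F3-KO and 0.01 in WT hearts. In whole heart tissue, fewer cardiomyocytes and less RNA per cardiomyocyte cannot be told apart. All 8 cardiomyocyte markers were below 0 for TAC against sham in F3-KO hearts, with a median of -0.41 (0.06 in WT hearts), and Myh6, the alpha myosin heavy chain, was at -0.96 ± 0.29. Their summed level was 85762 to 96463 CPM in F3-KO sham, 60439 to 73603 in F3-KO TAC, 66731 to 86282 in WT sham and 70720.01 to 102015 in WT TAC, and none of the 8 was at 0. Set against that sum, the 26 mitochondrial members came to 17.3%, 14.7% and 23.4% in F3-KO TAC and 16.4%, 19.8% and 20.1% in F3-KO sham. In WT hearts they came to 20.4%, 19.9% and 18.3% after sham and 19.2%, 14.4% and 18.5% after TAC. On this ratio F3-KO TAC overlapped every other group. The marker sum includes Myh6, so a lower Myh6 level by itself raises the ratio.

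Fibroblast markers ran the other way. Their 8 genes summed to 4417, 7805 and 1539 CPM in F3-KO TAC, 3391, 1492 and 1368 CPM in WT TAC, 1039 to 1429 CPM in F3-KO sham and 737 to 1619 CPM in WT sham. The heart with the most fibroblast transcript, F3-KO TAC replicate 2, had the lowest members, and F3-KO TAC replicate 3, with the least of its group, had the highest. All 8 macrophage markers were above 0 in both genotypes and summed to 604 to 1002 CPM in F3-KO TAC, 395 to 481 in F3-KO sham, 486 to 779 in WT TAC and 288 to 606 in WT sham. The 5 red blood cell markers summed to 366 to 979 CPM in F3-KO TAC, 1070.4 to 4493 in F3-KO sham, 298.7 to 4357 in WT TAC and 656 to 1742 in WT sham. The 5 adipocyte markers reached at most 1.81 CPM in sum. The part of these cell types in the members' differences was not tested. Hepatocyte transcripts were highest in F3-KO TAC replicates 2 and 3, and without both the members' F3-KO median was -0.54, with replicate 1 as the lone F3-KO TAC heart, assumed to vary like the others.

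**Figure D5:**
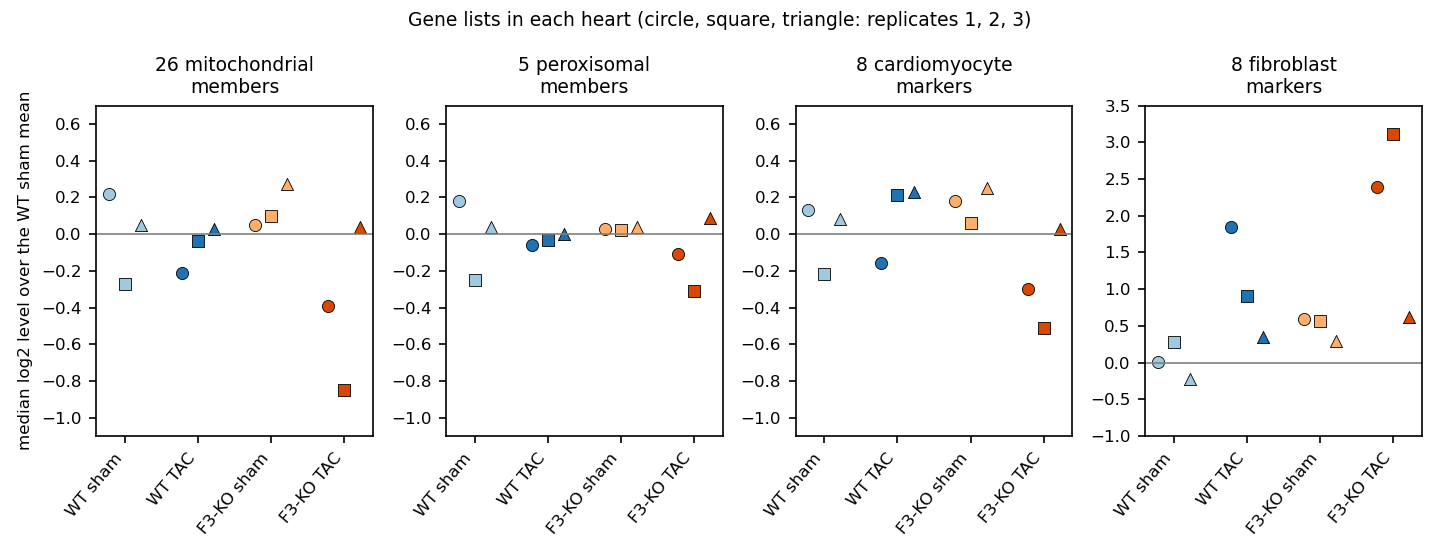
Median log2 level, relative to the WT sham mean, of the 26 mitochondrial members, the 5 peroxisomal members, 8 cardiomyocyte markers and 8 fibroblast markers in each heart (circle, square and triangle for replicates 1, 2 and 3), with a wider axis for fibroblast markers. In F3-KO TAC, replicates 1, 2 and 3 stand at -0.39, -0.85 and 0.04 for mitochondrial members, at -0.30, -0.51 and 0.03 for cardiomyocyte markers and at 2.39, 3.11 and 0.62 for fibroblast markers.

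Other genes of the pathway gave no call in edgeR. Of 32 further mitochondrial genes tested, 0 were called by edgeR for TAC against sham in either genotype (0% of all genes). Their median in F3-KO hearts was -0.33 (-0.05 in WT hearts). By the unadjusted rule 9 were lower and 2 higher in F3-KO hearts, where 6.47% of all genes were lower and 10.6% higher. Of 28 further peroxisomal genes 23 were tested, 0 were called, and the F3-KO median was -0.22 (-0.08 in WT hearts). By that rule 3 were lower and 1 higher in F3-KO hearts, against the same shares of all genes. Among 16 regulators 0 were called (0% of all genes), with medians of -0.25 in F3-KO and -0.17 in WT hearts. By the unadjusted rule 2 regulators were lower and 0 higher in F3-KO hearts, where 6.47% of all genes were lower and 10.6% higher. In WT hearts 1 was lower and 0 higher, where 6.28% of all genes passed in either direction. Ppara, the nuclear receptor that drives many of these enzymes, measured 133, 137 and 166 CPM in F3-KO sham and 98.1, 94.6 and 108 CPM in F3-KO TAC, with no overlap (-0.54 ± 0.18, edgeR adjusted p = 0.185). In WT hearts it was 111, 90.6 and 130.3 CPM after sham and 84.0, 127 and 119 CPM after TAC (-0.01 ± 0.18). Each F3-KO sham heart thus lay above every WT sham heart in Ppara, a pattern that 6.78% of all genes had. The F3-KO TAC hearts lay within the range of the WT sham hearts and within that of the WT TAC hearts. Esrra, which encodes the estrogen-related receptor alpha, was at -0.48 ± 0.16 in F3-KO and -0.27 ± 0.16 in WT hearts (edgeR adjusted p = 0.184 and 0.803). Ppargc1a, their coactivator, was at -0.27 ± 0.23 and -0.30 ± 0.23.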

How the data were processed

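Gene expression in mouse hearts was measured by RNA sequencing. The authors deposited estimated counts per gene, not normalized, for 12 libraries, of which 40.6% of values were not whole. Their processing notes name HISAT2 2.0.4, STAR 2.3.0 and DESeq2, and reads had been cleaned with SOAPnuke. The notes list the builds mm8 and mm9, and the counting tool and annotation are not given in the sources used here. A counter that splits reads between similar genes can move counts between Acaa1a and Acaa1b or among the acyl-CoA dehydrogenases. For 11 libraries the heart's own table equalled the joint table, and 1 own table was cut short.

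Counts were rounded to whole numbers and analysed in R 4.3.3. Genes were kept with filterByExpr (minimum count 10), scaled by TMM (factors 0.931 to 1.09) and fitted with edgeR 4.0.16's quasi-likelihood model of 4 groups (8 residual degrees of freedom, biological coefficient of variation 0.232), with 6 contrasts. A gene was called at an adjusted p (Benjamini-Hochberg over 14094 genes) under 0.05. DESeq2 1.42.0, limma 3.58.1 (limma-trend), other filters and scalings, a replicate block and leaving out each library were the alternatives. The steps were tested on simulated data. CPM of single genes are TMM-scaled, and sums and shares use library totals. The floor of 3 counts covers counting error only. Replicates differed beyond sampling noise in all 12 within-group pairs (chi-square per degree of freedom 10.4 to 84).

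Members and lists were chosen with earlier results of these data known. Named were all 31 members, Fabp3, Nppa, Nppb, Col1a1, Ppara, Ppargc1a, Esrra and pathway genes past the threshold. The value of every heart is given for the highest and lowest member of each TAC comparison. It is also given for the members DESeq2 called, for Mlycd, Cpt1a, Cpt1b, Decr1, Etfdh and Ppara, which were added, as was Myh6, after values were seen.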

Additional observations from a re-analysis of the deposited data

Results flagged for a closer look

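Cpt1b, Slc25a20 and Eci2 were picked out because each WT TAC heart lay above the mean of the WT sham hearts and each F3-KO TAC heart lay below the mean of the F3-KO sham hearts. This held for 3 of 31 members and for 251 of 14094 genes (1.78%). The difference between genotypes, tested as the interaction in edgeR, was -0.49 for Cpt1b (unadjusted p = 0.0869), -0.87 for Slc25a20 (unadjusted p = 0.00624) and -0.60 for Eci2 (unadjusted p = 0.0521), with an adjusted p of 0.954 for each.

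Hepatocyte markers, which no comparison used, summed to 88.2 CPM in F3-KO TAC replicate 2 and 135.4 CPM in F3-KO TAC replicate 3, against at most 1.69 CPM in the other libraries. Their part in the members' levels was not tested. No rule was used to flag single outlying hearts, since each group holds 3. Each heart was left out in turn, with results given above and below.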

How the results depend on the processing

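In WT hearts 0 genes were called for TAC against sham in edgeR, 26 with DESeq2, 885 at an unadjusted p of at most 0.05, and 1 each with no filter, with at least 10 counts in every library, with limma-trend and with the replicate block. Leaving out single hearts gave 0 to 1. In F3-KO hearts 0 genes became 442 with DESeq2 (7 members), 2 with library totals, 7 with no filter, 6 with at least 10 counts, 8 with limma-trend, 1 with only the libraries compared, 2412 unadjusted (16 members) and 33 without both libraries with hepatocyte transcripts, an alternative chosen after seeing the data. Leaving out single hearts gave 0 to 778 genes and 0 to 11 members, the highest without F3-KO TAC replicate 3. Averaged over genotypes, 11 genes became 613 with DESeq2 (2 members), 23 with no filter, 36 with at least 10 counts, 2513 unadjusted (11 members) and 315 without both libraries, and 0 (without F3-KO sham replicate 3) to 849 genes and 0 to 6 members without single hearts, the highest again without F3-KO TAC replicate 3. For F3-KO against WT after TAC, 11 genes became 94 with DESeq2, 17 with no filter, 0 with only the libraries compared, 1410 unadjusted (2 members), 3 without both libraries, and 6 to 103 without single hearts (6 without WT TAC replicate 3, 103 without F3-KO TAC replicate 3). After sham, 15 genes became 102 with DESeq2, 9 with library totals, 25 with limma-trend, 8 with the replicate block, 56 with only the libraries compared, 849 unadjusted (2 members), and 2 (without F3-KO sham replicate 3) to 7 (without WT sham replicate 1) over the 6 hearts left out in turn. For the interaction, 0 genes became 6 with DESeq2, 1 with limma-trend, 632 unadjusted (2 members) and 0 to 4 without single hearts. The cause of these changes was not tested.

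The members' median ran over single hearts left out from -0.19 to 0.03 in WT, -0.66 to -0.33 in F3-KO, -0.41 to -0.21 averaged, -0.53 to -0.14 after TAC, -0.01 to 0.21 after sham and -0.60 to -0.22 for the interaction, with each single move away from the value over all hearts below or at about the 0.249 SD between replicates. Acox3 in F3-KO hearts turned from 0.10 to -0.13 without both libraries, and Ehhadh in WT hearts ran from -0.23 (without WT TAC replicate 1) to 0.56. Of 186 fold changes (31 members, 6 contrasts), 126 kept one sign in every setting and 169 were called in none, with the unadjusted rule left out of these settings. The settings reuse the same libraries, and these counts were not made over all genes.

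The labels do not say whether replicate numbers pair the hearts, and 3 same-numbered pairs in each comparison are too few to settle it. Same-numbered deviations correlated at -0.141 to 0.092 in WT, 0.029 to 0.127 in F3-KO, 0.061 to 0.362 after TAC and -0.06 to 0.095 after sham, and the replicate block called 0 members in any contrast. Depth did not limit the members, whose lowest value in any heart was 9.34 CPM for Acad10.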

Other observations

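Estimated counts, deposited to at most 0.01, were exactly whole (no tolerance) in every heart for 10 of the 31 members, namely Acsl1, Cpt1a, Slc25a20, Cpt2, Etfa, Etfb, Etfdh, Echs1, Acaa2 and Ehhadh, and not whole in any heart for 12, among them Mlycd, Cpt1b, Acadvl, Hadhb, Eci1, Acaa1a and Scp2. Among the members, Ehhadh varied most between hearts within WT TAC (coefficient of variation 50.3%) and WT sham (37%), Acad10 within F3-KO sham (29.7%) and Acaa2 within F3-KO TAC (46.6%).

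Each TAC heart was also set against the sham hearts of its own genotype. In F3-KO TAC replicates 1, 2 and 3, 29, 30 and 15 of the 31 members lay below the lowest F3-KO sham heart, where 33.7%, 33.3% and 30.6% of all genes did. In WT TAC replicates 1, 2 and 3 this held for 12, 6 and 2 members, where 30.8%, 23.9% and 20.7% of all genes did.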
